A study of Mus musculus with 6 samples.

Results

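Activins, inhibins and bone morphogenetic proteins (BMPs) are secreted ligands of the TGF-β superfamily, and 10 genes of this system were examined in H22 tumours from luteolin-treated and control mice. They were taken by symbol from the deposited table of 21720 genes: the ligand genes Inhba, Inhbb, Bmp2, Bmp4 and Bmp7, the antagonist genes Fst, Fstl3 and Grem1, and the BMP target genes Id1 and Id3. Bulk RNA-seq was performed on 6 tumour libraries, 3 from the control group and 3 from the luteolin group. Every library came from H22, a mouse hepatocellular carcinoma line labelled wild type, grown under the skin of young adult female BALB/c mice, which keep their own immune system and contribute blood vessels, stroma and skin to the tissue. The control group received the vehicle, 0.5% carboxymethyl cellulose sodium, and the luteolin group received the plant flavone luteolin at 200 mg/kg, both once daily for 21 days. The sources do not say that each library was a separate mouse, so the p values measure the spread between these libraries, which may be technical. The labels name 1 tumour line and no sorted cells, and a bulk tumour cannot tell fewer cells of a type from less RNA per cell.

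Inhba and Inhbb encode the βA and βB subunits, whose dimers are the activins. Activins signal through type I and type II serine/threonine kinase receptors to SMAD2 and SMAD3, whereas BMPs act through related receptors on SMAD1, SMAD5 and SMAD8. Follistatin (Fst) and follistatin-like 3 (Fstl3) bind activins and keep them from their receptors, gremlin 1 (Grem1) does so for BMP2, BMP4 and BMP7, and Id1 and Id3, inhibitors of basic helix-loop-helix factors, are classical BMP target genes.

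Total estimated counts were 61081637 to 80442954 per library, and levels are given as CPM, the counts of a library scaled to a common normalized total. A gene was called where edgeR's quasi-likelihood test over 14963 genes gave p under 0.05 without adjustment and the level changed more than 2-fold (log2 fold change beyond 1 in either direction), which is the threshold of the study, and "rose" and "fell" are used at that threshold. The hepatoma marker Afp and albumin were detected in all 6 libraries, whereas Ttr, Apob, Fgb and Hnf4a stood at 0 in control replicates 1 and 3. Luteolin replicate 2 stood apart in keratinocyte markers, as given below, and results that rest on it are also given without it.

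Promoter sequences of RefSeq (build GRCm38.p6, 250 bases before to 50 bases after the gene start) were held for 6 of the 10 genes, namely Inhba, Inhbb, Fstl3, Bmp4, Grem1 and Id3. There was no entry for Fst, Bmp2, Bmp7 or Id1. The promoters of the 3 genes with an entry that rose are printed because the comparison of the groups turns on them. They lie at chr13:16011601-16011900 on the plus strand for Inhba, chr1:119422199-119422498 on the minus strand for Inhbb and chr2:113758599-113758898 on the minus strand for Grem1. Capitals mark matches to the motifs that were searched, read 5′ to 3′ on the coding strand.
Inhba: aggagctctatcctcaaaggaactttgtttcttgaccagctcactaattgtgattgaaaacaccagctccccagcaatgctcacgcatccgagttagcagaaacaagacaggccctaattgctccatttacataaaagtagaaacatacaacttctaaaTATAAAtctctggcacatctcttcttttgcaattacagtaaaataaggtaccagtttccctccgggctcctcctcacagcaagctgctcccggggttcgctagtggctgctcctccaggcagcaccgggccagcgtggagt
Inhbb: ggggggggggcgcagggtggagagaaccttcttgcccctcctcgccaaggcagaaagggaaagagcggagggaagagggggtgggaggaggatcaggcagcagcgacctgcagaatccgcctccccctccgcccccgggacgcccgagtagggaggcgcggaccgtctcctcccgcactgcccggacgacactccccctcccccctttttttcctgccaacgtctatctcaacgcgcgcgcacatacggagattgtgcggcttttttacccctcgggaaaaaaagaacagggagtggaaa
Grem1: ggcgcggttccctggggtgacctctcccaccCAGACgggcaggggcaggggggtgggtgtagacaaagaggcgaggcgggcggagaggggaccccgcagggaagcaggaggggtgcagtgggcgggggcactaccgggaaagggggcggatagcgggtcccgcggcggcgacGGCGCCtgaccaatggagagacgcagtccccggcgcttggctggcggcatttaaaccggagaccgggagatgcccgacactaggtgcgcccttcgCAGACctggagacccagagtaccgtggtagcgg

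Both strands were searched for GTCTG, the core bound by SMAD proteins, which 49.6% of 32851 promoters of this length hold, for the GC-rich SMAD site GGCGCC (11.9%), for the cAMP response element TGACGTCA (1.79%) and for the AP-1 site TGANTCA (7.81%). The coding strand was searched for the TATA box TATAAA (8.32%). The Inhba window held TATAAA 91 bases before the start and no other match. The Grem1 window held GGCGCC 78 bases before the start and 2 matches to GTCTG in reverse (CAGAC), 219 bases before and 18 bases after it. No match was found in the Inhbb window, whose GC content was 64.3%, against 47.7% for Inhba and 70.7% for Grem1. Of the others, Fstl3 and Id3 each held 2 matches to the SMAD core and Bmp4 held none. These matches describe letters and were not tested as binding sites.

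Inhba, Inhbb, Fst and Grem1 rose in the luteolin group, and none of the 10 genes fell. The activin subunit genes Inhba and Inhbb and the activin antagonist gene Fst were thus higher, by 2.23-fold, 3.61-fold and 2.74-fold. The BMP antagonist gene Grem1 was higher by 22.2-fold. Of the other β subunit genes, Inhbe fell, as given below. Inhbc was not tested, at 21, 5 and 10 control counts and 0 in each luteolin library. The BMP ligand genes Bmp2 and Bmp4, the antagonist Fstl3 and the target genes Id1 and Id3 did not pass the threshold. Bmp7 was not tested, since it reached the minimum level of the filter in 2 libraries, luteolin replicates 1 and 2, where 3 are needed. Of the 9 genes tested, 4 were called higher, where 11.3% of all tested genes were, and 0 were called lower, where 1.52% were. The 10 genes were chosen with earlier results of these data known. Their counts and median beside those of all genes are therefore descriptions and no test of the set. With Benjamini-Hochberg adjustment over all genes, Grem1 alone stayed under 0.05 in edgeR's test, where 1.34% of tested genes did in the higher direction and 0.187% in the lower. Among the 9 tested genes the median was 1.16 on the log2 fold change scale, against -0.01 over all genes, and each of the 9 reached the minimum level of the filter (0.150 CPM) in all control libraries too.

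**Figure D1:**
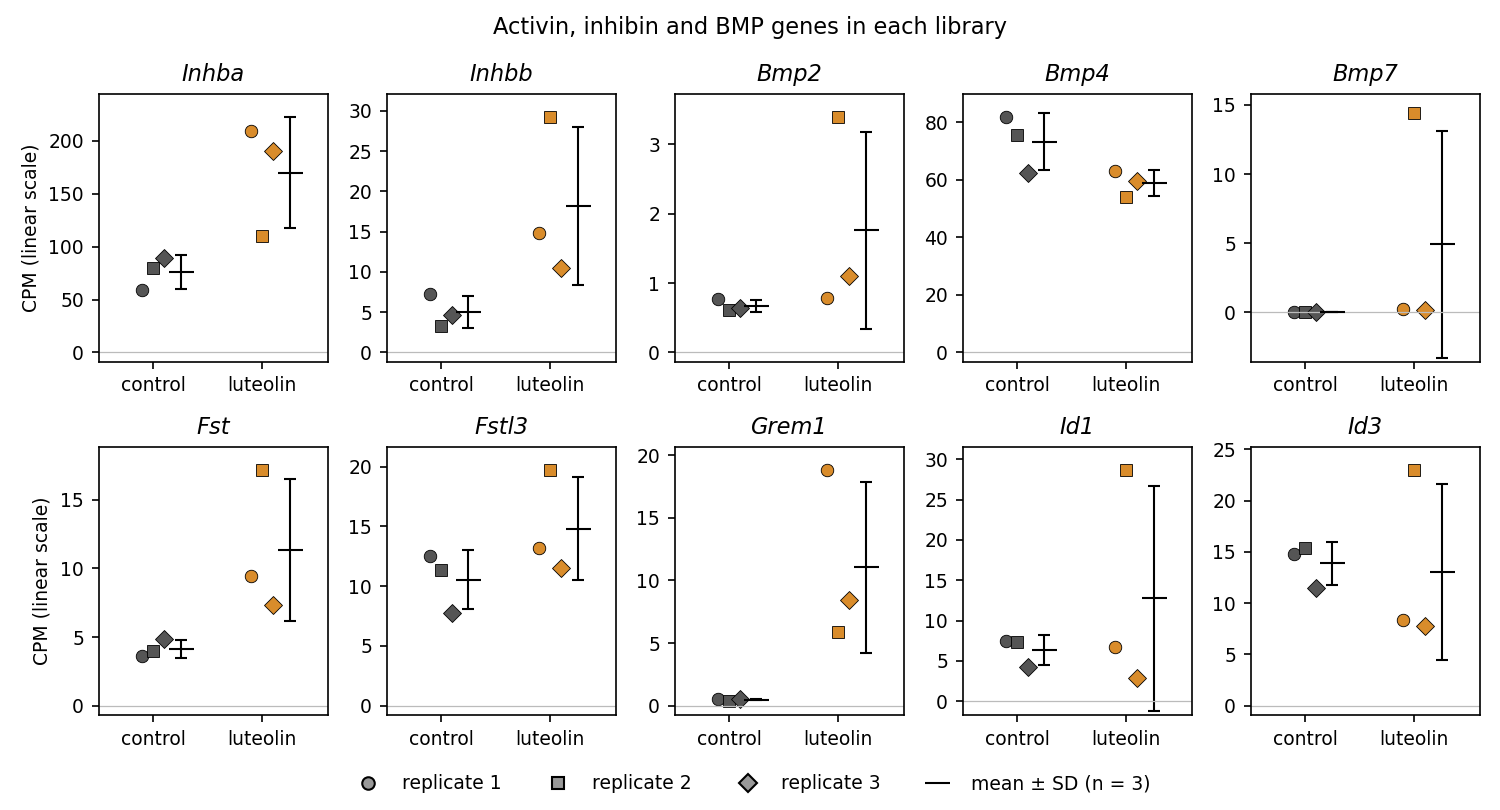
Levels of the 10 genes, 1 panel per gene, in CPM on a linear axis that differs between panels, with a point per control (grey) and luteolin (orange) library, shaped by replicate, and the mean ± SD of each group (n = 3) beside the points. Every luteolin library lay above every control library for Inhba, Inhbb, Fst, Bmp2, Bmp7 and Grem1, and the groups overlapped for Fstl3, Bmp4, Id1 and Id3. Of all tested genes, 15.9% lay above in this way. For Bmp7, luteolin replicates 1 and 3 were within the 12 counts that a control count of 0 was taken to allow.

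Inhba, the βA subunit gene, was measured at 58.8, 79.8 and 89.7 CPM in control replicates 1, 2 and 3 and at 209, 110 and 190 CPM in luteolin replicates 1, 2 and 3. The lowest luteolin library, replicate 2, lay above the highest control library. The mean went from 76.1 ± 15.8 to 170.0 ± 52.6 CPM (SD, n = 3 each), which is a log2 fold change of 1.16 (SE 0.28, 95% interval 0.49 to 1.83). The unadjusted p was 0.00456 and the adjusted p was 0.0968 after Benjamini-Hochberg correction of edgeR's quasi-likelihood p values. Without control replicate 1 the log2 fold change was 0.99 and without luteolin replicate 1 it was 0.98, so either omission took Inhba just under the fold threshold.

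Inhbb, which encodes the βB subunit, stood at 7.20, 3.27 and 4.60 CPM in the control libraries and at 14.8, 29.2 and 10.5 CPM in the luteolin libraries. Here luteolin replicate 2 was the highest of the 6, the reverse of its place for Inhba, and the groups again did not overlap. The mean rose from 5.02 ± 2.0 to 18.2 ± 9.83 CPM (SD, n = 3 each), with a log2 fold change of 1.85 (SE 0.48) and an adjusted p of 0.107 by edgeR's test. Without luteolin replicate 2 the log2 fold change was 1.34 and the gene was still called.

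Bmp2, a ligand known for inducing bone, was low in every library, at 0.772, 0.617 and 0.635 CPM in the controls and 0.782, 3.39 and 1.11 CPM in the luteolin libraries. The groups did not overlap, but luteolin replicate 1 barely exceeded the highest control. The log2 fold change of 1.38 had a 95% interval of -0.18 to 2.95 and was not called (adjusted p = 0.298, edgeR). Leaving out luteolin replicate 2 brought it to 0.50, and leaving out luteolin replicate 1 brought it to 1.74, which was called.

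Bmp4, a ligand that acts in mesoderm and epithelium, was the most abundant BMP gene of the 10, at 81.8, 75.5 and 62.4 CPM in the controls and 63.0, 54.1 and 59.5 CPM in the luteolin libraries. Luteolin replicates 2 and 3 lay under every control and replicate 1 lay just above control replicate 3. The log2 fold change was -0.31 with a 95% interval of -0.70 to 0.07, and it was not called (adjusted p = 0.331, edgeR). The interval does not reach a halving of the level.

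Bmp7, known for its part in kidney and skeletal development, had 0 counts in all 3 control libraries and 12, 1204 and 8 counts in luteolin replicates 1, 2 and 3. Most low values of the table are multiples of 4 or 1 above them, so 1 read pair was taken as 4 units and a count of 0 as allowing up to 12 counts per library. Against that limit the luteolin mean of 4.90 ± 8.21 CPM (SD, n = 3) was at least 27.1-fold higher, and this rests on replicate 2 at 14.4 CPM. Luteolin replicates 1 and 3 stood at 0.196 and 0.125 CPM, at or under the limit, so no fold is given without replicate 2. With no filter on low counts Bmp7 was called on its unadjusted p (adjusted p = 0.176, edgeR), and DESeq2 gave it no p value.

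Fst, the gene of follistatin, which binds activin almost irreversibly, was found at 3.59, 3.99 and 4.83 CPM in the controls and at 9.47, 17.1 and 7.36 CPM in the luteolin libraries. The order of the luteolin libraries was that of Inhbb, with replicate 2 highest, and no library overlapped the other group. The mean rose from 4.14 ± 0.635 to 11.3 ± 5.14 CPM (SD, n = 3 each), which is a log2 fold change of 1.45 (SE 0.39, adjusted p = 0.112 by edgeR). Without luteolin replicate 2 it was 1.04, still called.

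Fstl3, a second activin-binding protein of the follistatin type, was measured at 12.5, 11.4 and 7.77 CPM in the controls and 13.2, 19.7 and 11.5 CPM in the luteolin libraries. The groups overlapped, with luteolin replicate 3 between control replicates 1 and 2. The log2 fold change of 0.49 (SE 0.31, 95% interval -0.24 to 1.22) was not called, with an adjusted p of 0.430 by edgeR.

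Grem1 was low in the control libraries, at 0.514, 0.416 and 0.557 CPM (36, 27 and 36 counts), and stood at 18.8, 5.92 and 8.41 CPM in the luteolin libraries (1153, 495 and 538 counts). Luteolin replicate 1 was the highest and replicate 2 the lowest of its group, and even replicate 2 was far above the highest control. The mean rose from 0.496 ± 0.0723 to 11.0 ± 6.83 CPM (SD, n = 3 each), which is a log2 fold change of 4.47 (SE 0.55, 95% interval 3.17 to 5.77, adjusted p = 0.0331 by edgeR), which placed it 35th of all tested genes by p. Its log2 fold change was 3.84 to 4.79 when single libraries were omitted. The adjusted p was 0.117 to 0.210 without any 1 control library or without luteolin replicate 1, settings in which 0 genes of the table passed, and 0.0609 with the replicate number as a block.

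**Figure D2:**
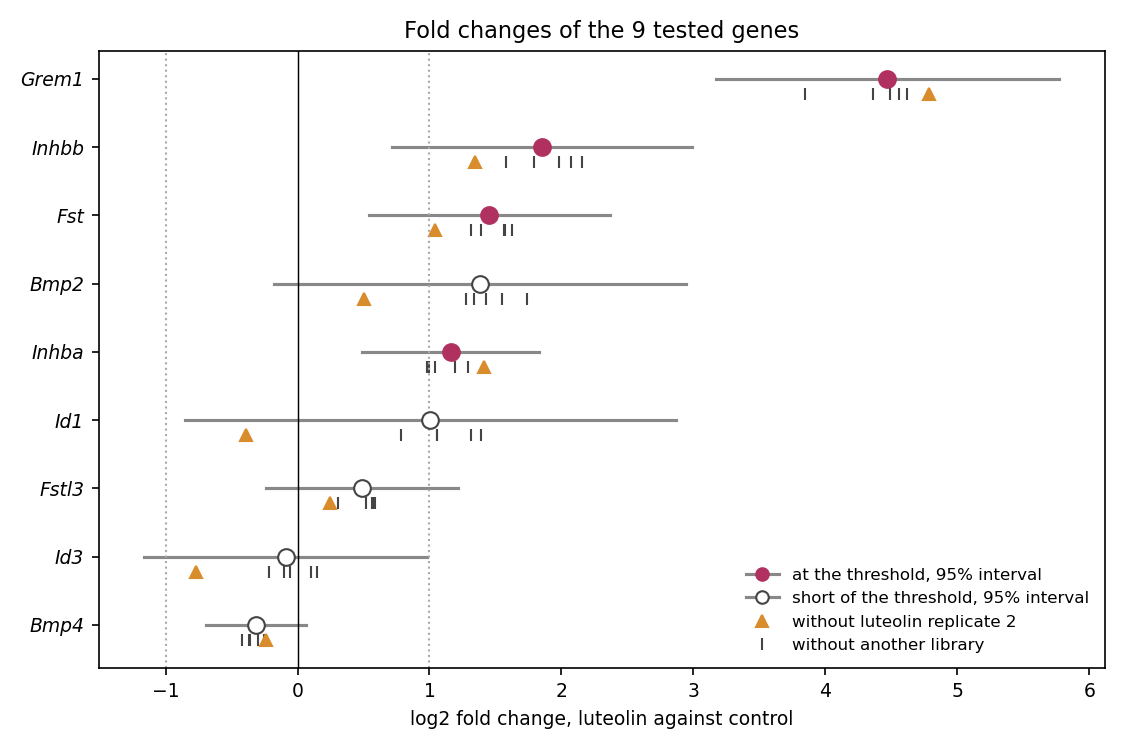
Log2 fold change of luteolin against control for the 9 tested genes, with points for edgeR's estimate (filled where called), lines for its 95% interval, triangles for the value without luteolin replicate 2, ticks for the values without each other library and dotted lines at the fold threshold. The intervals of Inhba, Inhbb, Fst and Grem1 lie wholly above 0, and those of Fstl3, Bmp2, Bmp4, Id1 and Id3 include 0.

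The target genes Id1 and Id3 did not pass the threshold. Id1 stood at 7.47, 7.32 and 4.27 CPM in the controls and at 6.68, 28.7 and 2.92 CPM in the luteolin libraries. Luteolin replicate 2 was far above all other libraries, while replicate 3 was the lowest of the 6. The log2 fold change was 1.01 with a 95% interval of -0.86 to 2.87 (adjusted p = 0.532, edgeR), and it turned to -0.39 without luteolin replicate 2.

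Id3 had the same order among the luteolin libraries, at 14.8, 15.3 and 11.5 CPM in the controls and 8.35, 23.0 and 7.76 CPM in the luteolin libraries. Luteolin replicates 1 and 3 lay under every control and replicate 2 above every control. The log2 fold change over all libraries was -0.09 (95% interval -1.16 to 0.98, adjusted p = 0.941 by edgeR). Without luteolin replicate 2 it was -0.77, with an adjusted p of 0.166 by edgeR, still short of the fold threshold. By limma's voom with quality weights on all libraries it was also -0.77, with an adjusted p of 0.0390.

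Every luteolin library lay above every control library for 5 of the 9 tested genes (Inhba, Inhbb, Fst, Bmp2 and Grem1), where 15.9% of all tested genes showed this, and below for 0, where 12.8% did. Since the genes were chosen with earlier results of these data known, these counts too are descriptions. Within the luteolin group the genes divided by their level in replicate 2. Its level over the mean of replicates 1 and 3 was 0.552 for Inhba, 0.435 for Grem1 and 0.884 for Bmp4, which were lowest there. The ratio was 1.59 for Fstl3, 2.04 for Fst, 2.31 for Inhbb, 2.85 for Id3, 3.59 for Bmp2, 5.97 for Id1 and 89.8 for Bmp7, which were highest there. With 1 library on one side these ratios are descriptions and have no test. Over all tested genes, the Spearman correlation of a library's deviation with gene GC content was 0.43 for luteolin replicate 2, against -0.18 and -0.36 for luteolin replicates 1 and 3, and was 0.42, -0.17 and -0.52 for control replicates 1, 2 and 3. These are correlations across genes, which are not independent replicates. The exon GC content was 41.4% for Inhba and 44.7% for Grem1, which were low in luteolin replicate 2, and 54.7% to 60.9% for Inhbb, Fstl3, Bmp7, Id1 and Id3, which were high there. Fst, at 44.3%, was high in that library and Bmp4 and Bmp2, both at 52.5%, stood on either side. With a GC offset in the fit the log2 fold change was 1.27 for Inhba, 1.73 for Inhbb, 1.63 for Fst and 4.50 for Grem1, all still called, and 0.78 for Id1 and -0.27 for Id3, neither called. The part of GC content in the order of the luteolin libraries was not tested.

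**Figure D3:**
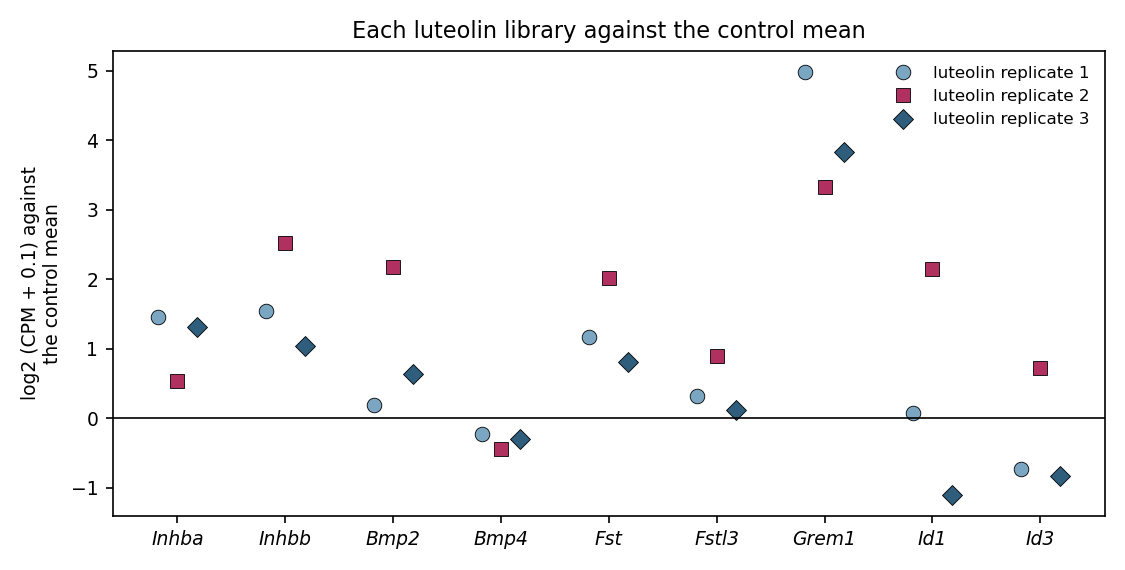
Level of each of the 9 tested genes in luteolin replicates 1, 2 and 3 relative to the control mean (horizontal line at 0), as a log2 ratio of CPM with 0.1 CPM added. Replicate 2 is the lowest of the 3 for Inhba, Grem1 and Bmp4 and the highest for Inhbb, Bmp2, Fst, Fstl3, Id1 and Id3.

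Per kilobase of merged exon length, which allows levels to be compared between genes, Bmp4 was the highest of the 10 in the control group at 32.6 ± 4.40 CPM per kb (SD, n = 3). Inhba followed at 11.9 ± 2.47 CPM per kb, Id3 at 7.75 ± 1.18, Id1 at 5.48 ± 1.56 and Fstl3 at 4.32 ± 1.01 CPM per kb. Inhbb at 1.18 ± 0.470 and Fst at 0.901 ± 0.138 CPM per kb differed by less than the SD of Inhbb, and Bmp2 at 0.190 ± 0.0238 and Grem1 at 0.120 ± 0.0174 CPM per kb came last before Bmp7 at 0. In the luteolin group Inhba at 26.6 ± 8.23 and Bmp4 at 26.2 ± 1.98 CPM per kb were not separable by their spread. Grem1 at 2.66 ± 1.65 CPM per kb stood beside Fst at 2.47 ± 1.12, and Inhbb stood at 4.27 ± 2.31 CPM per kb. Inhba thus remained well above Inhbb in both groups, in every library.

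The rest of the pathway was taken from lists of 67 other genes, of which 66 were in the table and 50 were tested. At the study's threshold 8 rose and 1 fell, 3 had an adjusted p under 0.05 by edgeR, and the median log2 fold change was 0.16. The shares called over all genes were those given above, 11.3% and 1.52%.

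Among 16 other ligand genes 7 were tested. Inha, the inhibin α subunit gene, whose product pairs with a β subunit to form inhibin, an antagonist of activin, rose from 4, 11 and 15 counts in the controls to 28, 178 and 36 counts in the luteolin libraries. Its log2 fold change was 2.77 (SE 0.90, adjusted p = 0.161 by edgeR), and the call was lost without control replicate 1 (2.31), control replicate 2 (2.79) or luteolin replicate 2 (1.75). Control replicate 1 was under the minimum level of the filter, so Inha was tested only through the luteolin libraries. It was not tested with 10 counts required in every library or with values divided by 4. At such low counts its fold is uncertain. Inhbe, the βE subunit gene, fell by 1.40 on the log2 scale, from 42, 49 and 40 counts to 20, 17 and 14 counts (adjusted p = 0.228, edgeR), a call lost with any 1 library left out, where the log2 fold change was -1.64 to -1.25. The ligand genes with the highest levels, Gdf11 and Bmp8b, had log2 fold changes of -0.20 and -0.60 and were not called.

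Of the 15 tested receptor and co-receptor genes 3 rose and 0 fell. Acvrl1, a type I receptor of endothelium, stood at 9.67 ± 2.34 CPM in the controls and 19.5 ± 4.75 CPM in the luteolin group (SD, n = 3 each; log2 fold change 1.01, adjusted p = 0.131 by edgeR), and 10 of 16 alternatives lost the call, among them those without control replicate 1 or 2 or luteolin replicate 2 or 3 (0.84 to 0.94). Tgfbr3, which encodes betaglycan, a co-receptor for inhibin, went from 15.3 ± 4.77 to 32.2 ± 11.5 CPM (log2 fold change 1.08), and its call was lost without control replicate 2 (0.83) or luteolin replicate 2 (0.80). Eng, the endothelial co-receptor endoglin, went from 15.2 ± 0.984 to 34.7 ± 20.3 CPM, and its log2 fold change of 1.19 became 0.62 without luteolin replicate 2. Without control replicate 2 or 3 the Eng log2 fold change was 1.13 or 1.16, with no call. The abundant type II and type I BMP receptors Bmpr2 and Bmpr1a were not called, with log2 fold changes of -0.23 and -0.29.

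Among the other extracellular antagonists and regulators, 12 genes were tested. Fstl1, a secreted glycoprotein of the follistatin family, rose, at 59.9, 70.7 and 86.1 CPM against 237, 203 and 136 CPM, a log2 fold change of 1.41 (SE 0.25, adjusted p = 0.0499 by edgeR). Its groups did not overlap, and luteolin replicate 3 was the lowest of its group. All 16 alternatives called Fstl1, with an adjusted p from 3.38e-05 in DESeq2 to 0.257 by edgeR without control replicate 2. By edgeR it was 0.0507 with RLE normalization, 0.132 with the replicate block and 0.0568 without luteolin replicate 2. Bmp1, a metalloproteinase that cleaves the BMP inhibitor chordin despite its name, was the most abundant other gene of the list, with a log2 fold change of 0.25.

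None of the 10 tested genes of the SMAD list was called in edgeR's test, with a median log2 fold change of -0.07. The list includes Smurf1 and Smurf2, which are not SMAD genes. Smad3, the activin and TGF-β transducer, was lower at 113 ± 17.6 CPM against 226 ± 36.4 CPM in the controls (SD, n = 3 each), and its log2 fold change of -0.999 stopped just short of the fold threshold (adjusted p = 0.0559, edgeR). Smad3 was called lower in DESeq2, the tool the study used (-1.01, adjusted p = 0.000335), with RLE normalization (-1.01), with no filter (-1.01), with the GC offset (-1.02) and with the replicate block and GC offset together (-1.05). It was also called lower without control replicate 2 (-1.10), control replicate 3 (-1.04) or luteolin replicate 3 (-1.16). In the other 8 of 16 alternatives Smad3 was not called, among them voom (-0.85) and those without control replicate 1 or luteolin replicate 2 (both -0.88). Smad7, which encodes an inhibitory SMAD, had a log2 fold change of -0.06.

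Of the 9 tested genes among other BMP targets 2 rose. Id2, a relative of Id1 and Id3, stood at 6.90, 7.97 and 8.58 CPM in the controls and at 25.3, 28.6 and 21.2 CPM in the luteolin libraries. Unlike Id1 and Id3 its 3 luteolin libraries lay close together, all above every control, and its log2 fold change was 1.68 (SE 0.22, adjusted p = 0.0331 by edgeR). Id4 went from 0.564 ± 0.182 to 3.11 ± 3.36 CPM, and its log2 fold change of 2.46 became 1.09, with no call, without luteolin replicate 2. It was also not called without any 1 control library (2.21 to 2.57). Without luteolin replicate 2, 3 of the 52 pathway genes then tested were called, among them Fstl1 and Id2. Over all 15137 genes tested in that setting, 1139 were called higher and 278 lower. The share called in the pathway lists was thus no larger than over all genes.

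**Figure D4:**
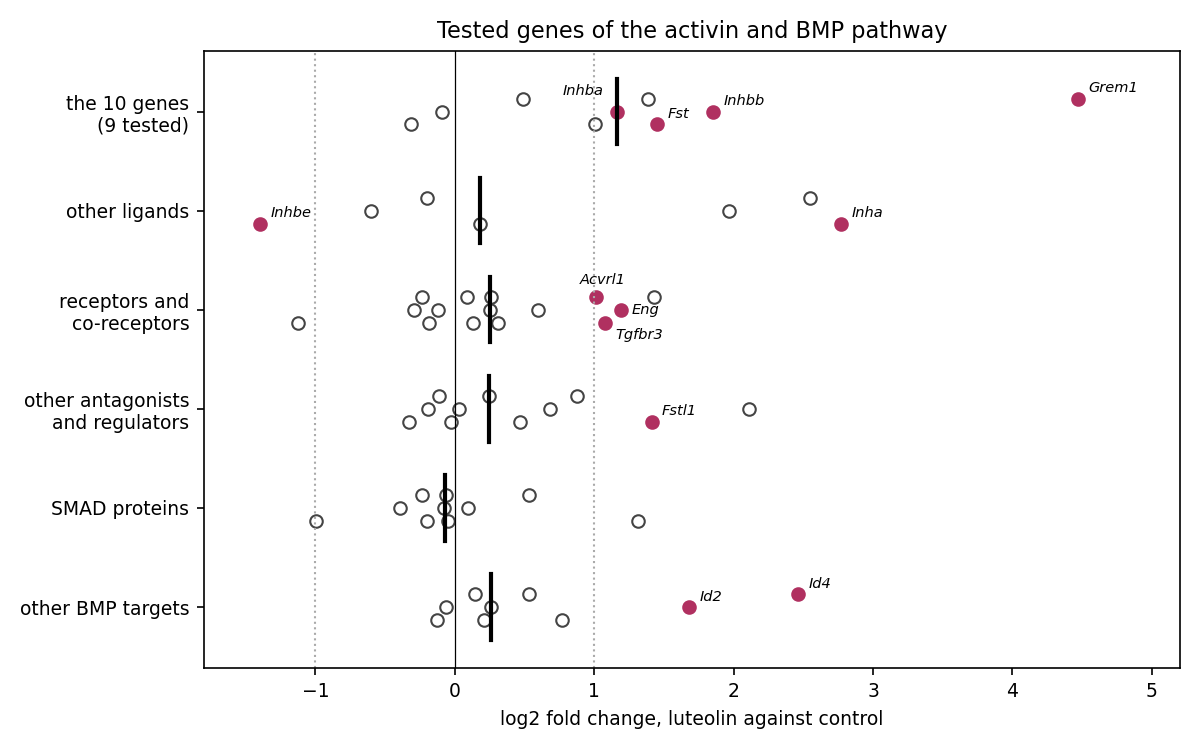
Log2 fold changes of the tested genes of the pathway, luteolin against control, grouped by role, with filled points for genes at the study's threshold, open points for the others, bars for each group's median and dotted lines at the fold threshold, without 1 gene that is not reported here. Grem1 at 4.47 lies farthest to the right, and the genes of the SMAD list, which includes Smurf1 and Smurf2, centre on -0.07.

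Markers of other cells in the tumour also moved with the group. The summed level of 10 fibroblast markers was 1458 to 1628 CPM in the controls and 4222, 5246 and 2148 CPM in luteolin replicates 1, 2 and 3, and 7 of the 10 rose. The sum of 12 keratinocyte markers was 4.09 to 5.07 CPM in the controls and 423, 9405 and 17.5 CPM in luteolin replicates 1, 2 and 3, and all 9 tested rose. Of these 12 markers 9 were at 0 in every control library (Krt14, Krt5, Krt1, Krt15, Dsg3, Dsc3, Lor, Flg and Krtdap). Those of them that were tested passed the filter on low counts only through the luteolin libraries. Their higher direction was thus fixed in advance. Trp63, at 13, 4 and 0 control counts, also passed the filter only through the luteolin libraries.

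The 10 endothelial markers summed to 152 to 180 CPM in the controls and 210 to 372 CPM in the luteolin group, and 3 rose. Neutrophil markers went from 60.5 to 69.2 CPM up to 180 to 390 CPM (5 of 8 rose), T-cell markers from 10.5 to 14.1 CPM up to 41.5 to 74.7 CPM (7 of 7 rose), and macrophage markers from 2007 to 2365 CPM up to 2580 to 3746 CPM (1 of 10 rose). Ly6g, a neutrophil marker that did not rise, had 13, 36 and 12 control counts against 0, 9 and 33 luteolin counts. Retnlg did not rise either, at 115, 141 and 138 against 114, 44 and 363 counts. The adipocyte sums of 14.5 to 74.1 and 19.5 to 371 CPM (1 of 7 tested rose), the skeletal muscle sums of 603 to 1218 and 282 to 1271 CPM (0 of 9) and the hepatocyte sums of 44.5 to 137 and 74.6 to 188 CPM (0 of 8) overlapped between the groups. Lep was at 0 in every control library, and every other marker of these lists was detected in at least 1 control library.

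Inhbb, Fst, Fstl3, Bmp2, Bmp7, Id1 and Id3 were highest in luteolin replicate 2, where the keratinocyte, fibroblast, endothelial, adipocyte, macrophage, T-cell and skeletal muscle sums were also the highest of the luteolin group. The neutrophil and hepatocyte sums were highest in luteolin replicate 1. Inhba, Grem1 and Bmp4 were lowest in luteolin replicate 2 among the luteolin libraries. Without luteolin replicate 2, Inhba, Inhbb, Fst and Grem1 were still called, and Inhba and Grem1 had an adjusted p under 0.05 by edgeR (Inhba 0.0308). The part of the other cell types in these results was not tested.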

How the data were processed

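RNA-seq of H22 tumours, 3 control and 3 luteolin libraries, was analysed. Per the labels, processing by the authors used bcl2fastq 2.0, HISAT2, StringTie and DESeq2 and names the builds rn6 and mm39, while the labels and the methods name different RNA extraction and library kits. The deposited table holds whole numbers by gene symbol, not scaled between libraries, and 70.3% of values from 1 to 40 are multiples of 4 or 1 above them. These deposited values of the authors were treated as estimated counts. Positions came only from RefSeq (GRCm38.p6) and exon lengths from GENCODE M21, not from the deposited table, and 0 columns were left out.

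The libraries were compared in R 4.3.3 with edgeR 4.0.16 (TMM, filterByExpr, quasi-likelihood test, two-sided, no covariates), Benjamini-Hochberg adjustment was made over 14963 genes, and the code was tested on simulated data. Unadjusted p values describe single genes of this fit. Alternatives were DESeq2 1.42.0, voom with quality weights in limma 3.58.1, other normalizations and filters, values divided by 4, a GC offset, a replicate block and each library left out. All 10 genes were described, and of each pathway list the genes at the threshold and the 2 with the highest mean. The 10 genes and the lists were chosen with earlier results of these data known. Smad6, Smad7 and Bambi are in 2 lists. A gene of the pathway lists that the rule selects is counted but otherwise not reported here.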

Additional observations from a re-analysis of the deposited data

How the results depend on the processing

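Inhba, Inhbb, Fst and Grem1 were called higher in all 10 alternatives that kept every library, and no setting called any of the 10 genes lower. Over all genes, the number at an adjusted p under 0.05 was 228 in edgeR's test, 1958 in DESeq2, 3197 in voom, 834 with the GC offset and 0 to 312 with 1 library left out. It was 0 without any 1 control library and without luteolin replicate 1, where 1907 to 2462 genes had an unadjusted p under 0.05. Genes called lower numbered 227, against 498 in voom and 140 to 305 with 1 library left out, and the share of calls that were higher was 88.1%, 77.9% in voom. Calls in the pathway lists numbered 9, and 3 to 12 with 1 library left out. Of the 10 genes, those with an adjusted p under 0.05 numbered 1 in edgeR's test, 4 in DESeq2, 5 in voom and 3 with the GC offset. The 5 in voom include Id3, which was lower there. With the replicate block, without any 1 control library and without luteolin replicate 1 the number was 0.

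Replicate numbers are shared between the groups, but same-numbered libraries did not deviate together (correlations -0.20, -0.09 and 0.06). So few pairs cannot settle whether the numbers pair the samples. With the replicate block 35 genes had an adjusted p under 0.05, Grem1 was at 0.0609, and the same 4 genes were called. The cause of the differences between settings was not tested.

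Id1 turned to -0.20 on the log2 scale in voom and ranged from -0.39 to 1.39 with 1 library left out, and Id3 ranged from -0.77 to 0.14. Smad7 was 0.17 in voom and ranged from -0.28 to 0.26, and Bmpr1a ranged from -0.59 to 0.010. Counts of 27 to 54 per control library limit what is known of Grem1 and Bmp2, and Bmp7 had none. In the pathway lists, Inha had only 4 to 15 counts per control library.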
